A study of Homo sapiens with 24 samples.

Results

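A set of 10 genes was followed across the series, all of them textbook markers of astrocytes: GFAP, AQP4, KCNJ10, AGT, MAOB, SLC1A2, SLC1A3, S100B, ALDH1L1 and GJA1. They were picked by symbol from the 58676 gene identifiers of the count file, and the choice of KCNJ10, AGT and MAOB used their higher counts with LLY-283 at day 5. The RNA came from HSJD-DIPG-007, an established line of diffuse midline glioma (DMG) cells with the genotype H3F3A K27M, ACVR1 R206H and PIK3CA MIS, as the labels spell it, so that all groups share these alleles. Cells were given vehicle or LLY-283, an inhibitor of the arginine methyltransferase PRMT5, at the concentration that inhibits growth by 40% (GI40). Each treatment group had 12 of the 24 libraries: 3 from day 0, 3 from day 5, 2 from day 7 and single libraries from days 1, 2, 3 and 10. In the study, day 0 stands for 0 days of treatment, so LLY-283 at day 0 names the group and not an exposure. The study grew the cells as spheroids, and calls the libraries of a group technical repeats. The labels describe 1 dose of LLY-283, whereas the study's methods give a further dose with fresh medium after day 5, so the exposure behind the values of days 7 and 10 is uncertain. All values therefore describe 1 line in culture, and p-values measure only the spread between these libraries, which may be technical.

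Astrocytes are glial cells that clear potassium and glutamate from around synapses, move water, inactivate amines and couple to each other through gap junctions. Most of the marker genes encode the proteins that do this, and others (GFAP, S100B) are used to stain the cells. DMG cells resemble glial precursors more than mature astrocytes, and several of the markers, SLC1A3, S100B and GJA1 among them, are also made by radial glia or by precursors of oligodendrocytes. PRMT5 places symmetric dimethyl groups on arginines of histones, splicing factors and other proteins.

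The proximal promoters of 4 of the genes are shown because these genes took different courses: KCNJ10, MAOB and AGT were higher with LLY-283 at day 5 and SLC1A3 was lower. Each sequence is the 250 bases upstream of a RefSeq start site (GRCh38.p14), 5′ to 3′ on the strand of the gene, and capitals mark matches to the STAT motif TTCNNNGAA.
KCNJ10, minus strand, chr1:160070161-160070410: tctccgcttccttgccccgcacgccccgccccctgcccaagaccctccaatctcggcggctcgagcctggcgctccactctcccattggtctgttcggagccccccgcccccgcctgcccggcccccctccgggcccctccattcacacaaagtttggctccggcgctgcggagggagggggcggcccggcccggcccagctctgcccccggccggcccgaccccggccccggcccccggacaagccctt
MAOB, minus strand, chrX:43882451-43882700: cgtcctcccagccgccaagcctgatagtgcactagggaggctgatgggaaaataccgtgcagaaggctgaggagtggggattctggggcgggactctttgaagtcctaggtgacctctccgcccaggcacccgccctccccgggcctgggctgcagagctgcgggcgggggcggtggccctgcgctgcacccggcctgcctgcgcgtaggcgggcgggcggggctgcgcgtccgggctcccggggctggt
AGT, minus strand, chr1:230714123-230714372: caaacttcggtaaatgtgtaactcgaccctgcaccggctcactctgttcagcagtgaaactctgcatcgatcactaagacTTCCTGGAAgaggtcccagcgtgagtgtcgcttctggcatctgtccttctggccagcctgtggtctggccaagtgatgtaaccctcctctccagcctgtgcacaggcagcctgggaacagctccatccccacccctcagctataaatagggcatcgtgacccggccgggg
SLC1A3, plus strand, chr5:36596338-36596587, the most upstream of its windows: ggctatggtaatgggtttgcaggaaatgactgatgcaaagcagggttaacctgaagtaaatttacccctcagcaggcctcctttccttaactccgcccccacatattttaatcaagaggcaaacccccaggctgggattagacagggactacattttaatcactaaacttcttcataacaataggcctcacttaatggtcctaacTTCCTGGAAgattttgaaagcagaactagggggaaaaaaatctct
The windows of KCNJ10 and MAOB had a GC content of 76.8% and 72%, with 25 and 21 CpG dinucleotides, against a median of 58% and 11 CpG over the 35116 upstream windows of the table. Those of AGT and SLC1A3 had 57.2% and 43.2% GC, with 9 and 1 CpG. In both AGT and SLC1A3 the match was TTCCTGGAA, 170 to 162 bases before the start in AGT and 45 to 37 bases before it in SLC1A3. Of all windows, 6.57% hold TTCNNNGAA. No match to the SOX motif ACAATG (9.29% of windows) or the GC-rich word GGCGCC (16.4%) was in the 12 windows of the 7 marker genes that the table holds. Each was searched on both strands, and other GC-rich words were not searched. The 1 other STAT match was in the most downstream of the windows of AQP4. These matches describe letters and not binding.

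Library totals lay between 13835205 and 23190369 estimated counts, with a median of 18688160.5. Levels are given as CPM (counts scaled to a fixed library size), scaled with TMM over the 24 libraries, and a gene is called where the quasi-likelihood F-test of edgeR gave a Benjamini-Hochberg adjusted p under 0.01 over all genes. At day 7, 1 library did not match its label and another was ambiguous. The library labelled LLY-283 repeat 2 had a distance (chi-square per degree of freedom of the counts) of 2.93 from vehicle repeat 1 and 13.4 from LLY-283 repeat 1, where repeats of days 0 and 5 lay 1.65 to 3.79 apart. It lay 2.72 to 3.80 from the vehicle libraries of day 5 and 16 to 20.6 from those of LLY-283. The library labelled vehicle repeat 2 lay 10.6 from LLY-283 repeat 1 and 11.2 from vehicle repeat 1, and its distance was 10.9 to 11 from the day 5 vehicle libraries and 10.4, 16.1 and 16.3 from those of LLY-283. Both libraries labelled repeat 1 were nearer to the day 5 libraries of their own label (3.96 to 4.44 for vehicle and 5.54 to 6.08 for LLY-283). Day 7 values are therefore given by label, and no comparison was made at day 7. FN1 (fibronectin) and COL1A1 (collagen I), which fibroblasts make in quantity, were high in 3 libraries: FN1 was at 60.4 CPM in vehicle day 5 repeat 3, 30 in vehicle day 7 repeat 1 and 26 in LLY-283 day 2, and between 0.758 and 8.19 in the other 21.

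KCNJ10 (chr1:159998651-160070160, minus strand) encodes the inward-rectifier channel through which astrocytes take up potassium. At day 0 its level was 1.16, 1.79 and 1.38 CPM in the vehicle libraries and 2.16, 1.58 and 1.58 CPM in the LLY-283 libraries. By day 5 it had reached 20.5, 23.3 and 22.9 CPM with vehicle and 49.3, 52.1 and 46.4 CPM with LLY-283. The groups overlapped at day 0 and were separate at day 5, and the gene was far above its starting level in both treatment groups. From day 0 to day 5 it rose by 3.92 ± 0.13 on the log2 scale with vehicle (SE, n = 3 and 3, edgeR adjusted p = 2.85e-19) and by 4.80 ± 0.10 with LLY-283 (adjusted p = 1.56e-21). It ranked 5 by log2 fold change among the 17106 and 17341 genes tested in these comparisons, which share the day 5 libraries used to choose the gene. In bulk RNA, more cells with a marker and more of its RNA per cell cannot be told apart. In the libraries of days 1, 2 and 3 it was at 6.44, 5.10 and 7.89 CPM with vehicle and 4.39, 5.94 and 14.8 CPM with LLY-283, so that only the day 3 pair differed by more than its counting interval in the direction of day 5.

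MAOB (chrX:43766610-43882450, minus strand) encodes a mitochondrial enzyme that oxidises amines such as dopamine. On the log2 scale, though not in CPM, it had the widest difference between treatment groups at day 5 among the members tested. That contrast was used to choose it. Its level at day 0 was 1.46, 1.16 and 1.38 CPM with vehicle and 0.688, 0.847 and 0.692 CPM in the libraries labelled LLY-283, and at day 5 it was 8.70, 7.16 and 7.02 CPM against 28.1, 29.4 and 23.1 CPM. The LLY-283 libraries were thus the lower ones at day 0, before treatment, and the higher ones at day 5, without overlap on either day. Those of day 0 held 14 to 15 counts of MAOB each. The day 0 difference of -0.86 ± 0.30 on the log2 scale was not called (edgeR adjusted p = 0.789, n = 3 and 3), and in 11.2% of the 17780 genes tested at day 0 the groups did not overlap. With time MAOB rose by 2.50 ± 0.18 with vehicle (edgeR adjusted p = 4.45e-12) and by 5.19 ± 0.15 with LLY-283 (adjusted p = 6.61e-19), and it ranked 17 and 3 by log2 fold change among all genes tested. As for KCNJ10, these comparisons share the day 5 libraries used to choose the gene, and the rise with LLY-283 starts from the lower day 0 level. Days 1, 2 and 3 gave 2.45, 3.24 and 3.86 CPM with vehicle and 2.22, 5.16 and 9.65 CPM with LLY-283.

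AGT (chr1:230690776-230745576, minus strand), angiotensinogen, is the secreted precursor of the angiotensins and is made in the brain mainly by astrocytes. It followed another course. It began at 47, 50.1 and 51.8 CPM with vehicle and 53, 51 and 47.6 CPM with LLY-283, was at 59.1 and 60.7 CPM in the libraries of day 1 and at 29.2 and 29.8 CPM in those of day 2, vehicle first. At day 3 it was at 19.5 CPM with vehicle and 31.7 CPM with LLY-283, and at day 5 at 23.7, 21.6 and 23.1 CPM against 56.9, 56.8 and 48.5 CPM. The day 5 vehicle libraries lay below all those of day 0, while the LLY-283 libraries of day 5 overlapped their day 0 range. With vehicle AGT fell by 1.14 ± 0.06 on the log2 scale from day 0 to day 5 (n = 3 and 3, edgeR adjusted p = 3.79e-15). With LLY-283 the difference was 0.11 ± 0.06 (adjusted p = 0.108). The higher level with LLY-283 at day 5 was therefore close to the starting level of the culture, unlike that of KCNJ10 and MAOB. As for those genes, the comparisons of AGT with day 0 share the day 5 libraries used to choose it. Exons of AGT overlap COG2 on the other strand and ENSG00000244137 on its own. The kit keeps strand, but whether the counting used it is not given in the sources used here.

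**Figure D1:**
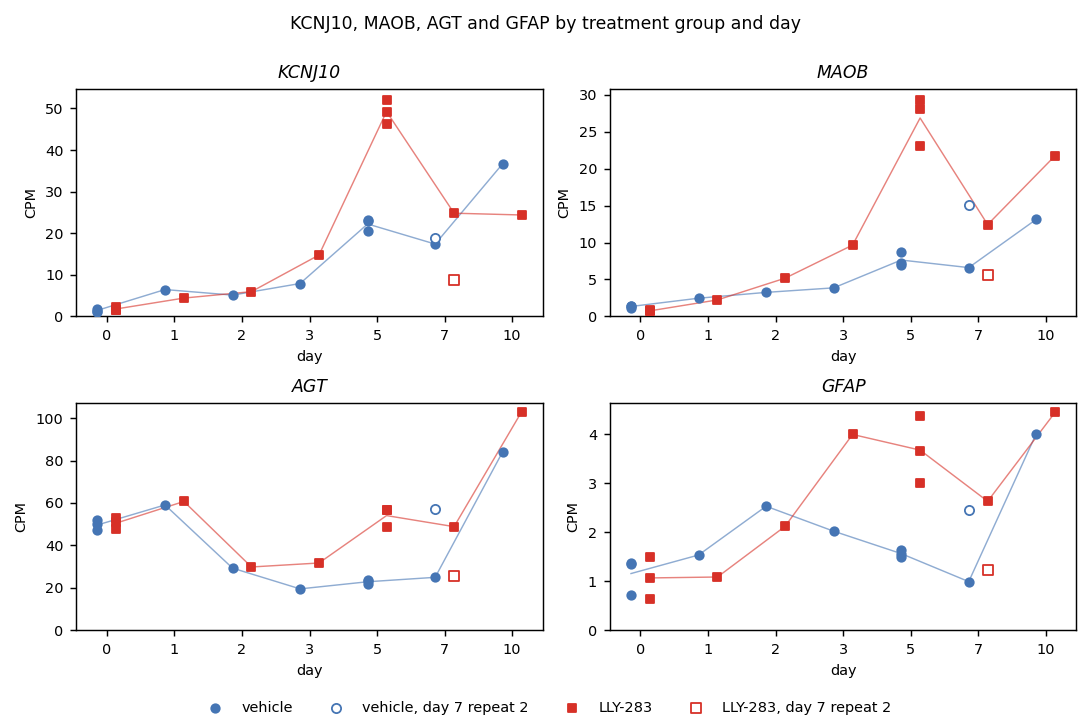
Level (CPM, linear axis from 0) of KCNJ10, MAOB, AGT and GFAP by day (evenly spaced, not to scale), each point 1 library, with lines through the group means that leave out the open points, the day 7 libraries labelled repeat 2. KCNJ10 and MAOB climb in both treatment groups and are higher with LLY-283 at day 5. AGT drops from day 1 to day 2 in both treatment groups. At day 5 it lies between 48.5 and 56.9 CPM with LLY-283 and between 21.6 and 23.7 CPM with vehicle.

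GFAP (chr17:44903159-44916937, minus strand), the intermediate filament protein by which astrocytes are stained, was present at a low level. Its counts gave 1.36, 0.727 and 1.38 CPM with vehicle and 0.639, 1.07 and 1.48 CPM with LLY-283 at day 0, and 1.49, 1.64 and 1.55 CPM against 4.37, 3.00 and 3.65 CPM at day 5. The vehicle libraries of day 5 lay just above the day 0 range of vehicle, and the LLY-283 libraries of day 5 above all other libraries of both days. GFAP rose by 1.79 ± 0.25 on the log2 scale from day 0 to day 5 with LLY-283 (n = 3 and 3, edgeR adjusted p = 1.9e-06), and differed by 0.42 ± 0.31 with vehicle (adjusted p = 0.262). The 24 libraries held 948 counts of GFAP in all. Its exons overlap CCDC103 and FAM187A on the other strand. AQP4 (chr18:26852043-26865771), the water channel of astrocyte endfeet, had 0 counts in all 24 libraries, which allows a level of up to 0.00677 CPM over the pooled 443350601 counts (3 counts, counting error only) and of 0.129 to 0.217 CPM in a single library.

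The 2 glutamate transporters of astrocytes differed in level. SLC1A3 (EAAT1; chr5:36596588-36688334, plus strand), the transporter that radial glia and precursors also carry, was at 330, 314.5 and 316.5 CPM with vehicle and 315, 325 and 314 CPM with LLY-283 at day 0. At day 5 it was at 332, 321 and 325 CPM with vehicle and 299, 283 and 268 CPM with LLY-283. Every LLY-283 library of day 5 lay below every other library of days 0 and 5. It fell by 0.15 ± 0.03 on the log2 scale with LLY-283 from day 0 to day 5 (n = 3 and 3, edgeR adjusted p = 0.000553), and the difference with vehicle was 0.01 ± 0.04 (adjusted p = 0.841). SLC1A2 (EAAT2; chr11:35251205-35420063, minus strand), the transporter of mature astrocytes, had 543 counts in all and lay between 0.731 and 1.94 CPM. Its difference from day 0 to day 5 was -0.74 ± 0.32 with vehicle (edgeR adjusted p = 0.0584) and -0.06 ± 0.29 with LLY-283 (adjusted p = 0.891), and neither was called.

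S100B (chr21:46598604-46605208, minus strand), a calcium-binding protein of astrocytes and of maturing oligodendrocyte precursors, was among the most abundant markers and varied little. It was at 294, 309 and 325 CPM with vehicle and 334, 324 and 320.2 CPM with LLY-283 at day 0, and at 263.5, 258 and 252 CPM against 275.5, 249.8 and 249 CPM at day 5. The treatment groups overlapped at day 5, and each group lay below its own day 0 libraries. S100B fell by 0.28 ± 0.04 on the log2 scale with vehicle (n = 3 and 3, edgeR adjusted p = 6.43e-07) and by 0.32 ± 0.03 with LLY-283 (adjusted p = 2.64e-08). GJA1 (chr6:121435595-121449727, plus strand), the main gap junction protein of astrocytes, was at 82.9, 92.4 and 91.6 CPM with vehicle and 92.5, 88.1 and 86.3 CPM with LLY-283 at day 0. At day 5 it was at 96, 85.7 and 89.4 CPM with vehicle and 80.5, 76.7 and 71.2 CPM with LLY-283, so that the day 5 groups did not overlap. With LLY-283 it fell by 0.21 ± 0.04 from day 0 to day 5 (edgeR adjusted p = 0.000203), and with vehicle the difference was 0.01 ± 0.05 (adjusted p = 0.898). ALDH1L1 (chr3:126103562-126197994, minus strand), a cytosolic enzyme of folate metabolism, had 229 counts in all and lay between 0.171 and 0.921 CPM. It did not pass the filter on low counts at day 5 or over days 1 to 3. Between days it was not called (-0.81 ± 0.40 with vehicle, edgeR adjusted p = 0.0978, and -0.35 ± 0.39 with LLY-283, adjusted p = 0.484).

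**Figure D2:**
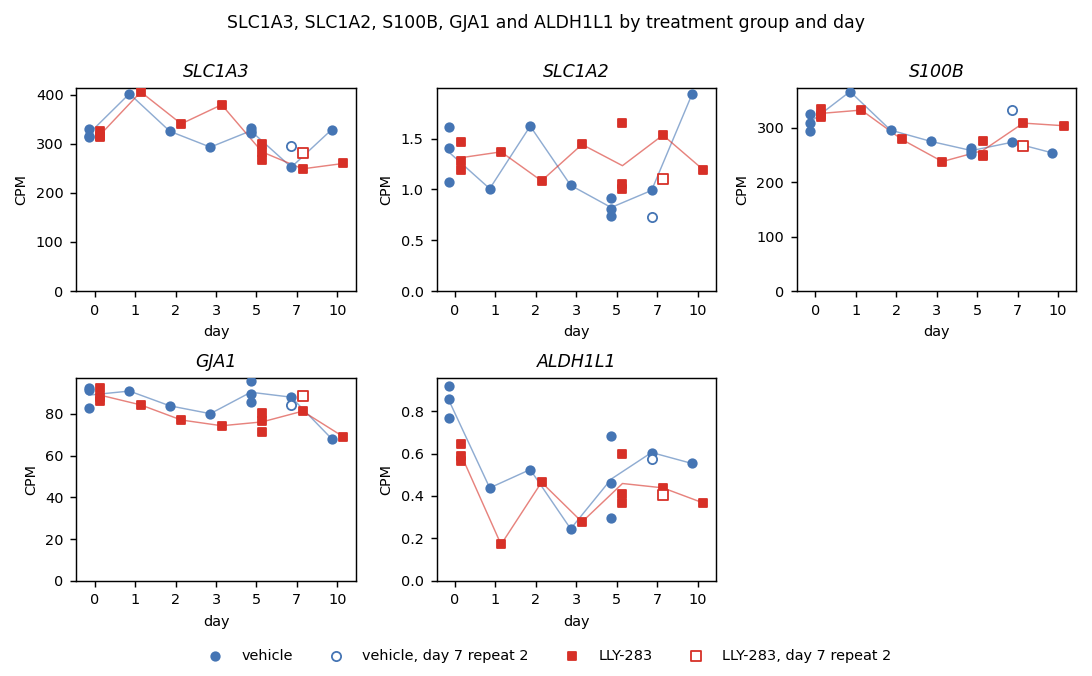
Level (CPM, linear axis from 0) of SLC1A3, SLC1A2, S100B, GJA1 and ALDH1L1 by day (evenly spaced), each point 1 library, with lines through the group means that leave out the open points, the day 7 libraries labelled repeat 2. SLC1A3 and GJA1 are lower with LLY-283 at day 5, S100B overlaps between the treatment groups there, and SLC1A2 and ALDH1L1 stay under 2 CPM.

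At day 5, the contrast used to choose the members, the difference between LLY-283 and vehicle is given as a description. It was 1.83 ± 0.10 on the log2 scale for MAOB (SE), 1.27 ± 0.07 for AGT, 1.25 ± 0.22 for GFAP and 1.18 ± 0.06 for KCNJ10. These 4 were called higher, beside 12% of the 16491 genes tested. The 2 called lower, beside 14.1% of all genes, were GJA1 at -0.23 ± 0.05 and SLC1A3 at -0.18 ± 0.04. SLC1A2 (0.61 ± 0.34) and S100B (0.02 ± 0.04) were not called, and AQP4 and ALDH1L1 did not pass the filter. In 7 of the 8 that passed, all but S100B, the groups did not overlap, as in 46.7% of all genes. Without vehicle day 5 repeat 3, the library high in FN1, the calls and directions of the members were the same. In that library KCNJ10, MAOB and AGT were at 22.9, 7.02 and 23.1 CPM, close to the other vehicle libraries.

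Over days 1 to 3, whose libraries are not those of the day 5 choice, none of the 8 members tested was called. The members were chosen with earlier results of these data known, so these days are no independent check. LLY-283 and vehicle were compared with day as a term, on 1 library of each treatment group per day. With edgeR 0 of 17240 genes were called (0%), and 2879 reached p under 0.05 before adjustment. The DESeq2 count was 12. Within each day, the LLY-283 library was higher than the vehicle library on all 3 days for SLC1A3 and AGT and lower on all 3 for S100B and GJA1. These were 4 of 8 members, beside 41.9% of all genes on 1 side throughout. Over the 3 days pooled, the treatment groups overlapped in all 8, whereas in 18.6% of all genes they did not. MAOB differed by 0.72 ± 0.25 on the log2 scale (edgeR adjusted p = 0.231), KCNJ10 by 0.26 ± 0.28 (0.68), AGT by 0.24 ± 0.15 (0.463) and GFAP by 0.15 ± 0.29 (0.827). SLC1A3 differed by 0.17 ± 0.07 (0.308) and S100B by -0.13 ± 0.05 (0.216), GJA1 by -0.10 ± 0.05 (0.361) and SLC1A2 by 0.11 ± 0.31 (0.887), where the numbers in parentheses are edgeR adjusted p-values. S100B and GJA1 kept a similar ratio of LLY-283 to vehicle over the 3 days, at 0.907, 0.942 and 0.865 for S100B and 0.927, 0.919 and 0.928 for GJA1. For KCNJ10, MAOB and AGT the days were unlike each other. The ratio of LLY-283 to vehicle for KCNJ10 was 0.682 at day 1 (95% counting interval 0.511 to 0.905), 1.16 at day 2 (0.886 to 1.53) and 1.87 at day 3 (1.51 to 2.32). For MAOB it was 0.907 (0.587 to 1.39), 1.59 (1.16 to 2.2) and 2.5 (1.87 to 3.39). For AGT the ratio was 1.03 (0.948 to 1.11), 1.02 (0.908 to 1.14) and 1.63 (1.42 to 1.87). Thus day 3 was the first day on which KCNJ10, AGT and GFAP (1.98, interval 1.29 to 3.08) were all higher with LLY-283 by more than counting error, and MAOB was already so at day 2. SLC1A3 was at 1.01 and 1.05 on days 1 and 2 and at 1.29 on day 3 (1.25 to 1.34), opposite in direction to day 5. Without day 2, whose LLY-283 library was high in FN1, MAOB differed by 0.73 (edgeR adjusted p = 0.288) and no member was called. These intervals are exact binomial ones and cover counting error only, not the spread between libraries.

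After day 5 the order changed with the label. In the libraries labelled repeat 1 of day 7, KCNJ10 was at 24.8 CPM with LLY-283 and 17.4 CPM with vehicle, MAOB at 12.4 and 6.60 CPM, and AGT at 48.8 and 24.9 CPM. In those labelled repeat 2 the order was the opposite: KCNJ10 was at 8.69 CPM in the library labelled LLY-283 and 18.9 CPM in the one labelled vehicle, MAOB at 5.62 and 15.1 CPM, and AGT at 25.5 and 57.3 CPM. A mean over the labelled groups hides this, since the 2 pairs move in opposite directions. At day 10, KCNJ10 was lower with LLY-283 (24.4 against 36.7 CPM, ratio 0.664, interval 0.588 to 0.75), while MAOB (21.8 against 13.1 CPM) and AGT (103 against 84.2 CPM) were higher. SLC1A3 was also lower with LLY-283 at day 10 (260 against 329 CPM, ratio 0.79, interval 0.76 to 0.821). With vehicle, AGT was between 21.6 and 23.7 CPM at day 5 and at 84.2 CPM in the single library of day 10. GFAP was between 1.49 and 1.64 CPM at day 5 and at 4.01 CPM (58 counts) in that library. GFAP was at 4.45 CPM with LLY-283 at day 10, a ratio of 1.11 (0.793 to 1.56).

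**Figure D3:**
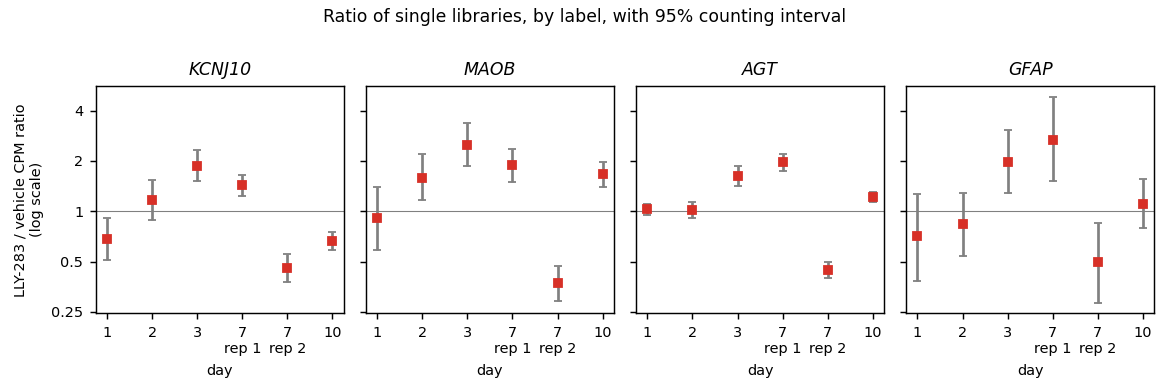
Ratio of the CPM with LLY-283 to that with vehicle (log axis) in pairs of single libraries, with bars for the 95% counting interval. KCNJ10, MAOB, AGT and GFAP are above 1 at day 3 and in the day 7 pair labelled repeat 1 (1.43 to 2.66) and below 1 in the pair labelled repeat 2 (0.372 to 0.496), and at day 10 KCNJ10 is below 1.

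Per kilobase of the Ensembl canonical transcript, the mean day 0 levels over 6 libraries fell into 3 tiers. S100B stood at 286 ± 12.8 CPM per kilobase (SD), SLC1A3 at 81.5 ± 1.74, GJA1 at 28.9 ± 1.27 and AGT at 23.7 ± 1.11. A wide gap followed, with MAOB at 0.404 ± 0.133, KCNJ10 at 0.309 ± 0.0663, ALDH1L1 at 0.236 ± 0.0479, GFAP at 0.202 ± 0.0653 and SLC1A2 at 0.111 ± 0.0164, and AQP4 at 0. The upper 4 were separated by more than their spread, whereas the neighbours from MAOB to GFAP were not. With the length of all exons in place of 1 transcript, GJA1 came before SLC1A3 and ALDH1L1 moved behind SLC1A2, so the order of those neighbours depends on the length used. Over the 24 libraries the highest level of KCNJ10 was 45 times its lowest and that of MAOB 42.7 times. Both highest levels were in LLY-283 day 5 repeat 2, a library used to choose these genes, so their ranges partly reflect that choice. The other low genes had ratios of 6.96 (GFAP), 5.38 (ALDH1L1) and 2.65 (SLC1A2), and the upper 4 had 5.29 (AGT), 1.63 (SLC1A3), 1.54 (S100B) and 1.41 (GJA1). The ratios of ALDH1L1, GFAP and SLC1A2 rest on few counts per library, and so do the lowest levels of KCNJ10 (23 counts) and MAOB (14 counts).

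**Figure D4:**
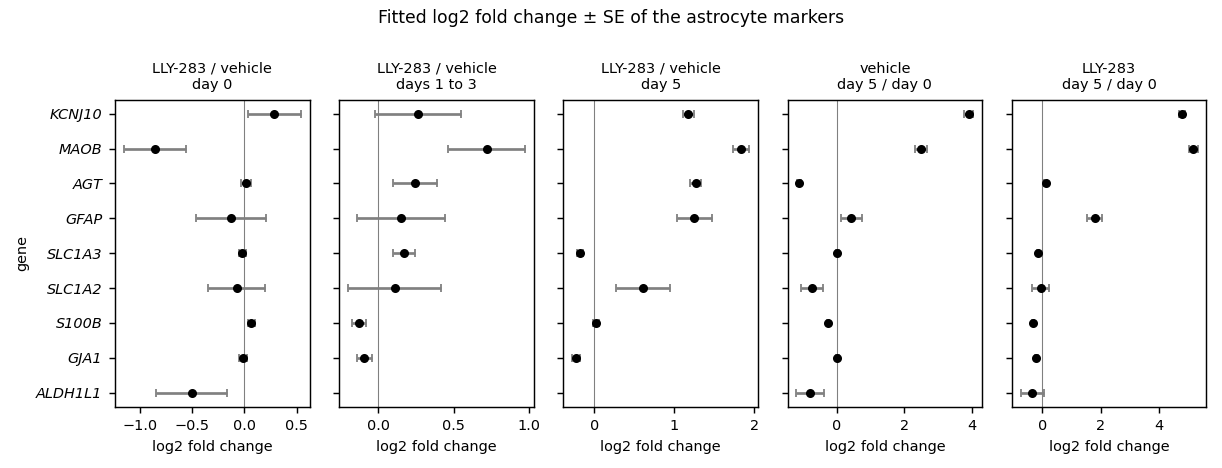
Fitted log2 fold change ± SE of each marker that passed the filter (rows) in the 5 comparisons (panels, each with its own axis), from 3 libraries per group or, for days 1 to 3, 1 per group and day. KCNJ10 and MAOB lie far to the right in both day 5 against day 0 panels, AGT is at -1.14 with vehicle and 0.11 with LLY-283, and no marker was called at day 0 or over days 1 to 3.

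Counting members by direction, 4 of the 9 tested changed from day 0 to day 5 with vehicle and 6 of the 9 with LLY-283, beside 38.9% and 42.4% of all genes. With vehicle 2 rose (KCNJ10, MAOB), beside 22.2% of all genes, and 2 fell (AGT, S100B), beside 16.7%. In the LLY-283 group 3 rose (KCNJ10, MAOB, GFAP), beside 22.9%, and 3 fell (S100B, GJA1, SLC1A3), beside 19.5%. Both comparisons share the day 5 libraries used to choose KCNJ10, MAOB and AGT, so these counts are a description. The median log2 fold change over the 9 was 0.01 with vehicle and -0.06 with LLY-283, and over all genes the medians were -0.02 and 0.01. At day 0 no member was called and edgeR called 3 of 17780 genes (0.0169%), with 1012 at an unadjusted p under 0.05.

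The pathway of each marker was counted at day 5 beside the 12% of all genes called higher and 14.1% called lower. The gene lists here and in the paragraphs below were chosen with earlier results of these data known. Their counts are therefore a description. Among the other inward-rectifier channels, 2 of 8 tested were higher with LLY-283 and 0 lower. KCNJ9, a channel subunit of neurons whose gene lies 11377 bases from KCNJ10, was at 1.61, 1.64 and 0.739 CPM with vehicle and 3.27, 3.79 and 3.00 CPM with LLY-283, a difference of 1.33 ± 0.25 (edgeR adjusted p = 0.000112). KCNJ8, of pericytes, was higher by 0.76 ± 0.21 (adjusted p = 0.00457), and KCNJ2 by 0.17 ± 0.05, which was not called (0.0116). KCNJ8 is counted again among the endothelial and pericyte genes below. For AGT, none of the 3 tested genes of the angiotensin system was called, ATP6AP2 (the renin receptor) at 0.12 ± 0.05, LNPEP at -0.08 ± 0.05 and MAS1 at 0.56 ± 0.49, and AGTR2 and ENPEP had 0 counts in all libraries. For MAOB, 0 of 5 genes of amine degradation were higher and 1 was lower (ALDH9A1, -0.16 ± 0.04, edgeR adjusted p = 0.00204). Its paralogue MAOA was at 1.74, 2.83 and 2.59 CPM with vehicle and 2.51, 2.05 and 1.55 CPM with LLY-283, so that the groups overlapped.

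Of the genes for glutamate handling beside SLC1A2 and SLC1A3, 2 of 5 tested were higher with LLY-283 at day 5 and 1 lower. GLUL, the glutamine synthetase of astrocytes, differed by 0.25 ± 0.03 (edgeR adjusted p = 1.9e-06) and SLC38A3, a glutamine transporter, by 0.49 ± 0.07 (5.74e-06), while SLC1A5, a neutral amino acid transporter, differed by -0.42 ± 0.04 (6.03e-10). GLUL is counted again among the further astrocyte markers below. Of the other aquaporins and the dystroglycan complex that anchors AQP4, 1 of 7 was called higher (DAG1, dystroglycan, 0.16 ± 0.04, edgeR adjusted p = 0.00301). AQP1 (-0.86 ± 0.26, adjusted p = 0.01) and UTRN (0.10 ± 0.04, 0.0671) were not called. Neither of the 2 connexins tested beside GJA1 was called (GJC1, -0.12 ± 0.04, and GJB1, 0.65 ± 0.39). Of the folate genes related to ALDH1L1, 7 of 8 were lower and 0 higher, beside 14.1% of all genes called lower. MTHFD2, a mitochondrial folate enzyme, differed by -0.46 ± 0.04 (edgeR adjusted p = 4.1e-09), TYMS, thymidylate synthase, by -0.30 ± 0.04 (1.59e-07) and MTHFD1L by -0.40 ± 0.06 (1.74e-06).

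Other astrocyte genes were more often higher than lower at day 5, and so were genes of oligodendrocyte precursors and of neurons, given below. The list of further astrocyte markers was also chosen with earlier results known, so its counts are a description. Of 24 further astrocyte markers 16 were tested, and 8 were higher and 1 lower, beside 12% and 14.1% of all genes. Their median log2 fold change was 0.28 against 0.02 over all genes. It was 0.335 over the neuronal genes and 0.247 over the oligodendrocyte genes, so a median above that of all genes was not particular to astrocyte markers. CLU, a secreted chaperone, differed by 0.69 ± 0.04 (edgeR adjusted p = 7.11e-14), ATP1B2, a sodium pump subunit, by 0.61 ± 0.04 (3.48e-13) and EDNRB, an endothelin receptor, by 0.67 ± 0.06 (5.04e-10). These 3 reached day 5 by different courses. From day 0 to day 5 with vehicle, ATP1B2 rose by 1.90 ± 0.04 (edgeR adjusted p = 6.86e-23) and EDNRB by 0.60 ± 0.06 (3.79e-09), while CLU fell by 0.94 ± 0.04 (7.08e-16). CLU also fell with LLY-283, by 0.32 ± 0.04 (edgeR adjusted p = 4.53e-08). Of 10 tested genes of reactive astrocytes, 4 were higher and 2 lower, beside the same shares of all genes. CHI3L1, a secreted glycoprotein, was at 598, 619 and 602 CPM with vehicle and 1423, 1548 and 1482 CPM with LLY-283 (1.32 ± 0.04, edgeR adjusted p = 8.27e-20), EMP1 differed by 0.78 ± 0.06 (2.68e-09) and HSPB1, a small heat shock protein, by -0.40 ± 0.04 (1.2e-09). CHI3L1, like AGT, fell with vehicle from day 0 to day 5 (by 0.40 ± 0.04, edgeR adjusted p = 3.57e-10), and with LLY-283 it rose (0.91 ± 0.03, 1.05e-16).

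Among 13 tested regulators of astroglial genes, 8 were higher and 1 lower at day 5, beside 12% and 14.1% of all genes. Their median log2 fold change was 0.17. SOX9, a transcription factor of glial fate, differed by 0.43 ± 0.03 (edgeR adjusted p = 1.45e-10), IL6ST, the shared receptor chain of cytokines that signal to STAT3, by 0.24 ± 0.04 (4.6e-06) and OSMR, the oncostatin M receptor, by 0.26 ± 0.04 (1.03e-05). From day 0 to day 5 with vehicle 10 of the 13 rose and 0 fell, beside 22.2% and 16.7% of all genes, and with LLY-283 12 rose and 0 fell, beside 22.9% and 19.5%. In a shared fit of all 24 libraries the day 5 counts were smaller, with 1 regulator and 4 of the further astrocyte markers called higher and 1 folate gene called lower. The lists of days 1 to 3 held no called gene. The smallest p-values there belonged to MTHFD1L (-0.27 ± 0.06, edgeR adjusted p = 0.127), SLC1A5 (-0.21 ± 0.05, 0.13), HSPB1 (-0.21 ± 0.05, 0.132), PPP1R3C (0.47 ± 0.12, 0.132) and ZBTB20 (0.24 ± 0.06, 0.132).

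**Figure D5:**
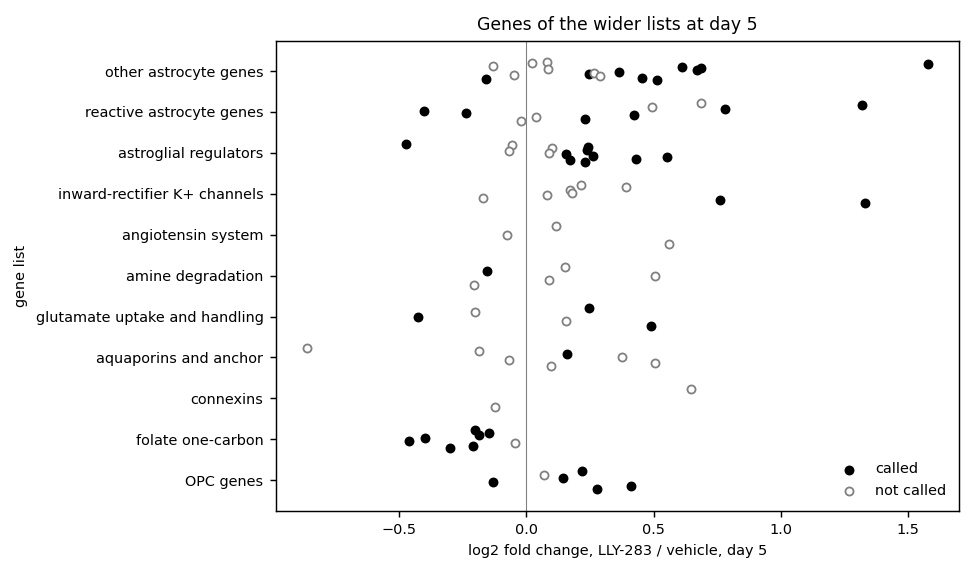
Log2 fold change of LLY-283 against vehicle at day 5 (x axis) for each tested gene of 11 lists (rows), filled where the gene was called and open where not, with a vertical spread only to separate points. Filled points lie mostly right of 0 among astrocyte genes, astroglial regulators and genes of oligodendrocyte precursors (OPC), and left of 0 in the folate list. The lists of neurons, oligodendrocytes and the remaining cell types are not drawn.

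Markers of other cell types were measured beside these results. Their day 5 counts stand beside 12% of all genes called higher and 14.1% called lower. Of the genes of oligodendrocyte precursors, 4 of 6 tested were higher and 1 lower with LLY-283 at day 5: PDGFRA, a growth factor receptor, differed by 0.41 ± 0.04 (edgeR adjusted p = 9.39e-10), PTPRZ1 by 0.28 ± 0.04 (5.71e-07) and BCAN by 0.22 ± 0.04 (3.8e-05), and OLIG2, a lineage transcription factor, by -0.13 ± 0.03 (0.00347). The call of OLIG2 was lost with library size alone, with no filter on low counts, in the shared fit, and without vehicle repeat 3 or LLY-283 repeat 2 or 3, and in the shared fit the precursor genes called higher were 2. The summed level of the 8 precursor genes was 5832 to 6086 CPM with vehicle and 6604 to 6855 CPM with LLY-283 at day 5. For the 10 astrocyte markers it was 720.0 to 748 CPM and 711.5 to 795 CPM, so that the groups overlapped, whereas with library size alone they did not (704 to 721 CPM and 729 to 786 CPM). Most of the sum over the astrocyte markers came from SLC1A3, S100B and GJA1. SOX10 was at most 0.603 CPM in any library. Of the neuronal genes 4 of 8 were higher and 1 lower, and of the oligodendrocyte genes 1 of 6 was higher and 0 lower. The 6 microglial genes summed to at most 1.91 CPM in any library. The 6 endothelial and pericyte genes summed to 9.38 to 11.2 CPM with vehicle and 10.3 to 12.1 CPM with LLY-283 at day 5 (1 of 3 tested higher and 1 lower, neither of them called with DESeq2 or in the shared fit). The 10 fibroblast genes summed to 220 to 384 CPM and 302 to 303 CPM. Of the 9 tested, 3 were higher and 0 lower, while the median log2 fold change was -0.62 and 6 of the 9 were negative (FN1 at -3.94 ± 1.94, edgeR adjusted p = 0.206, and COL1A1 at -1.55 ± 1.03, adjusted p = 0.335). The part of other cells in the marker values was not tested.

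Over the 24 libraries, KCNJ10 and MAOB had similar profiles (Pearson r = 0.954 of log2 CPM), and GFAP was nearer to MAOB (0.796) than to KCNJ10 (0.699). AGT was unlike either (-0.02 with KCNJ10 and 0.07 with MAOB). Other pairs were negative. With S100B, r was -0.623 for KCNJ10, -0.603 for MAOB and -0.458 for GFAP. With GJA1 it was -0.52, -0.615 and -0.827 in the same order. AGT was at 0.446 with S100B and -0.378 with GJA1. These values describe libraries that share days and cultures. They include the day 5 libraries used to choose KCNJ10, MAOB and AGT. The likeness of KCNJ10 and MAOB, and the lists of nearest genes that follow, therefore partly reflect that choice. Of 20876 genes, those most like KCNJ10 were BCL6 (0.979), TMEM47 (0.973), SYNJ2 (0.972), RFTN2 (0.97) and SEPTIN8 (0.969). For MAOB they were SLC25A18 (0.983), a mitochondrial glutamate carrier, DCLK2 (0.981), AKAP8L (0.974), RPE65 (0.973) and STARD13 (0.973). AGT had no neighbour so close, with SLC22A23 at 0.906, LGR4 at 0.89, SPP1 (osteopontin) at 0.89, LNPK at 0.873 and CYLD at 0.869. SLC1A3 was followed most nearly by LOX (0.797) and ELN (0.771), which encode lysyl oxidase and elastin, and by USP12 (0.77), MPRIP (0.756) and LIMS1 (0.756).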

How the data were processed

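RNA of the 24 libraries was poly(A) selected and prepared with a directional kit. Per the labels and the study's methods, the authors assigned reads to transcripts with kallisto (build hg38) and deposited estimated counts per gene, in whole numbers and not normalized. The kallisto version, annotation and strand setting are not given in the sources used here. All 24 columns were used, and 58207 of 58676 identifiers matched a symbol. From these counts edgeR 4.0.16 (R 4.3.3) computed TMM scaling, the default low-count filter by group, robust quasi-likelihood F-tests and adjusted p-values (Benjamini-Hochberg over all genes tested) within the libraries compared, with calls at an adjusted p under 0.01. Levels used TMM over all 24 libraries. The counts behind a level set its counting error, for which 95% intervals are given for single libraries. DESeq2 1.42.0 and other filters, scalings, thresholds and fits were alternatives. The test was checked on simulated data for day 5, with 200 changed genes among 16491, and the share recovered was 75% at a log2 fold change of 1 and 55% at 0.5. In these simulated data 7 unchanged genes were called. The same check for vehicle day 5 against vehicle day 0 called 15 unchanged genes, and the remaining comparisons 3 to 6. At day 5 the data gave 4304 calls, far more than the 200 genes changed in the simulation. The recovered shares and false calls therefore do not carry over directly to the data. Coordinates are those of GENCODE on GRCh38, with promoters from RefSeq (GRCh38.p14, gene starts matched by symbol for 7 of 10 genes). The text names the 10 members, up to 3 genes of smallest p from each wider list, genes whose level serves as a check (PDGFRA, OLIG2, SOX10, FN1, COL1A1), and the 5 genes most like each of KCNJ10, AGT, MAOB and SLC1A3. A few further genes (APOE, MAOA, and AGTR2 and ENPEP, which were at 0) were chosen after their values were seen. The members and lists were chosen with earlier results of these data known. The authors' day 5 analysis used DESeq2.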

Additional observations from a re-analysis of the deposited data

Results flagged for a closer look

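The mean of SLC1A3 lay on opposite sides of its day 0 value in the treatment groups. Its level was 5.68 CPM higher at day 5 than at day 0 with vehicle and differed by -35.16 CPM with LLY-283, a difference of -40.8 CPM between the changes. That difference was not tested, and the sign of the vehicle change turned when counts were scaled by library size alone.

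The day 7 and day 10 libraries entered none of the 5 comparisons, only the shared fit, the levels and the correlations, and several markers differed there by more than counting error. In the day 7 pair labelled repeat 1 the ratio of LLY-283 to vehicle was 2.66 for GFAP, 1.43 for KCNJ10, 1.96 for AGT, 1.88 for MAOB and 1.13 for S100B. In the single pair of day 10 it was 1.22 for AGT, 1.66 for MAOB and 1.2 for S100B, and it was below 1 by more than counting error for KCNJ10 (0.664) and SLC1A3 (0.79). Each ratio rests on 1 library per treatment group, and in the day 7 pair labelled repeat 2 all 5 genes had ratios below 1. Counting error leaves out the spread between repeats of a group, which matters most for abundant genes. S100B was at 275.5 CPM in LLY-283 day 5 repeat 1 and at 248.6 CPM in repeat 3.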

How the results depend on the processing

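The day 5 count of called genes was 4304, and 2036 in a shared fit of all 24 libraries, in which the spread of the day 7 pairs enters. In that fit GFAP (adjusted p = 0.0158), AGT (0.0136) and SLC1A3 (0.0171) were no longer past the threshold at day 5, nor were AGT with vehicle over time (0.0123) or SLC1A3 with LLY-283 over time (0.0268), all with the same direction. Over days 1 to 3 the count of 0 became 12 with DESeq2, 1 with its size factors in edgeR, 517 with no filter on low counts, 3 at an adjusted p under 0.05 and 1 in the shared fit. Leaving out 1 day gave 0 to 256 (39 without day 2, 256 without day 3). MAOB was called there with no filter (adjusted p = 0.00618). The day 0 count of 3 became 56 with no filter, 8 at an adjusted p under 0.05, 0 in the shared fit and 6 with the replicate block, and 0 to 17 with 1 library left out.

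Several members near 0 changed sign. At day 5 S100B ranged from -0.02895 to 0.0423 with 1 library left out and was -1.96e-05 in the shared fit. Over days 1 to 3, leaving out 1 day gave GFAP -0.3492 to 0.3794, KCNJ10 -0.1515 to 0.6085 and SLC1A2 -0.07856 to 0.4755. Over time with vehicle, SLC1A3 was -0.04517 with library size alone and -0.01579 with at least 10 counts in every library, and GJA1 was -0.0465 and -0.01735. With 1 library left out SLC1A3 ranged from -0.003855 to 0.03693 and GJA1 from -0.03593 to 0.05796, and SLC1A2 with LLY-283 over time from -0.3353 to 0.07957. AGT with LLY-283 over time was called without LLY-283 day 5 repeat 3 (0.1851, adjusted p = 0.0061). The cause of these changes was not tested. Repeat numbers did not pair the libraries (correlations of deviations -0.0502 to 0.0531), and the replicate block gave 4401 calls at day 5. Of the short lists at day 5, the 2 channels called higher became 1 with DESeq2, in the shared fit and without vehicle repeat 1 or 3 or LLY-283 repeat 1 or 3. The call of ALDH9A1 was lost in the shared fit and without vehicle repeat 1, and that of DAG1 with DESeq2, in the shared fit and without vehicle repeat 2 or 3 or LLY-283 repeat 2 or 3. KCNJ10 and MAOB kept their direction and stayed past the threshold at day 5 and over time in both treatment groups in all alternatives run. All these fits share the day 5 libraries used to choose both genes, so their agreement is a description and no separate support.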

Other observations

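Of the 16 further astrocyte markers tested, 11 rose and 3 fell with vehicle from day 0 to day 5, beside 22.2% and 16.7% of all genes. With LLY-283 12 rose and 2 fell, beside 22.9% and 19.5%. APOE, the lipid carrier of astrocytes, was named after its values were seen. It was among those that fell with vehicle, as AGT, CLU and CHI3L1 did. With LLY-283 these genes differed: CLU fell, CHI3L1 rose, and AGT and APOE were not called. APOE was at 3.02, 3.34 and 3.37 CPM with vehicle at day 0 and 0.745, 2.10 and 1.85 CPM at day 5. With LLY-283 it was at 2.95, 3.45 and 3.46 CPM at day 0 and 4.78, 5.05 and 3.85 CPM at day 5. With vehicle it fell by 1.08 ± 0.27 on the log2 scale (n = 3 and 3, edgeR adjusted p = 0.00157), and with LLY-283 it differed by 0.49 ± 0.16 (adjusted p = 0.0134). At day 10 it was at 6.15 CPM with vehicle and 5.82 CPM with LLY-283. CHI3L1 was at 2682 and 2896 CPM at day 10, above its level in every other library, and AGT was also highest at day 10 in both treatment groups.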
